A study of Homo sapiens with 24 samples.

Results

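The response of the RNP granule-enriched RNA pool to arsenite and RK-33 given together was compared with the responses to each agent alone. The comparison used 12 of the 24 libraries of the series, namely those from the insoluble cytoplasmic fraction, chosen by their fraction label. U2OS, a human osteosarcoma cell line, made up 4 groups of 3 replicates. Ctrl received the vehicle, 0.12% DMSO, during 2 h, the NaAsO2 group 500 µM sodium arsenite during 60 min, the RK-33 group 6 µM of the compound from 1 h earlier, and Combo both agents at these doses. RK-33 was dissolved in DMSO, and no vehicle is stated for the NaAsO2 group. A vehicle effect therefore cannot be told apart from effects of arsenite or from the interaction. All 4 groups are this one cell line and no label names a genetic change, so DDX3 was addressed here only through its inhibitor. The insoluble fraction is the pellet of a fast spin of cytoplasmic lysate, enriched for stress granules (SGs) and P-bodies. A pellet of this kind can also hold membranes with bound ribosomes and other large particles, which limits it as a model of granules.

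Arsenite is an oxidative stressor that halts translation initiation, and untranslated mRNAs then collect with RNA-binding proteins in SGs. DDX3 is an ATP-dependent RNA helicase found in SGs, and RK-33 is a small molecule that blocks its ATPase. In stressed cells, proteotoxic damage also switches on chaperone genes through HSF1, metal ions switch on metallothioneins, and mitogen and stress kinases switch on immediate early genes. The measure used throughout is the interaction, (Combo minus NaAsO2) minus (RK-33 minus Ctrl) on the log2 scale. It is 0 when the log2 effects of both agents add, positive when the level in Combo lies above that sum and negative when it lies below.

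A library held 8829811 to 15376554 exon counts and 2980681 to 6092652 intron counts, so 10 CPM corresponds to about 100 counts and, for the abundant mRNAs named, the spread between replicates rather than counting error limits the comparison. All 7 mesenchymal markers were present, with median levels of 8.21 CPM for ALPL, 31.5 for THY1, 56.0 for RUNX2, 145 for CDH2, 526 for VIM, 828 for SPARC and 1340 for COL1A1. Of 7 markers of other cell types, HBB and ALB had a median of 0, and PTPRC, PECAM1, EPCAM, CDH1 and SOX2 had 1.35, 1.77, 2.12, 4.52 and 8.77 CPM. Replicate 3 of NaAsO2 and replicate 3 of Combo stood apart. RN7SL1, the RNA of the signal recognition particle, held 5.79% and 1.23% of their exon counts, against 0.426% to 0.868% in the other 10 libraries. Their correlation with replicates of the same group, over genes on the log2 scale, was 0.923 to 0.933 and 0.976 to 0.979, against 0.989 to 0.992 for the other pairs. The soluble libraries held 7.51% to 15.5% RN7SL1. The part of RN7SL1 and of these libraries in the results was not tested beyond leaving them out, and the counts of calls in gene groups are given with and without both. The lysates are bulk samples, so fewer cells with an RNA and less of the RNA per cell cannot be told apart, nor, within one fraction, can a loss of RNA and its move to the other fraction.

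Among 17937 genes tested with edgeR's quasi-likelihood test, 306 (1.71%) had an interaction at an adjusted p under 0.05. It was positive in 170 (0.948%) and negative in 136 (0.758%), and 3497 genes had an unadjusted p under 0.05. Of the positive calls, 124 had a log2 interaction of at least 1 (0.691% of the genes tested), and 71 of the negative calls one of -1 or less (0.396%). Without both libraries that stood apart, 5334 genes (29.7%) were called, 2397 positive (13.4%) and 2937 negative (16.4%). These held all 170 and all 136 calls of the 12 libraries in the same direction. That fit used only libraries of the main fit and left out those least like their replicates. Its overlap with the main calls, and its counts given below, are therefore no separate evidence. Leaving out 1 library at a time moved the count from 3 to 2094, by over 1.5 times for each of the 12 libraries, so the number of genes called is uncertain. Of 67 named genes that were called, 1 stayed called in all 12 of these fits, 6 in 9 to 11, 12 in 6 to 8 and 48 in 1 to 5. The study states that the sequencing experiment was done 3 times for every condition. The labels do not say that replicates came from separate cultures, so all p-values measure the spread between these samples.

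**Figure D1:**
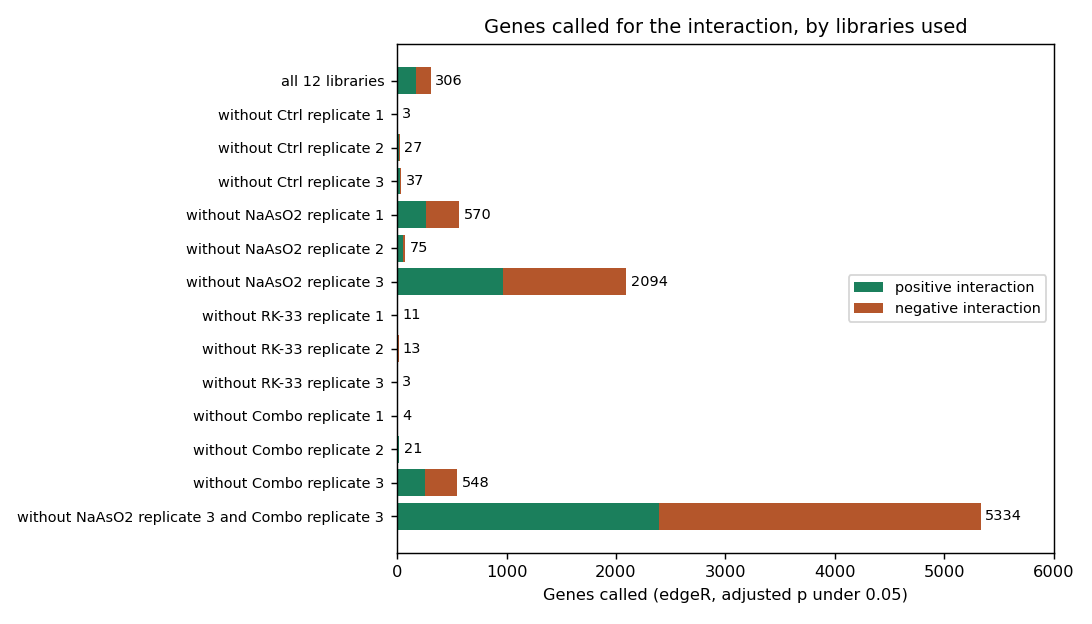
Genes called for the interaction (x axis, edgeR adjusted p under 0.05) with all 12 insoluble libraries and with the libraries on the y axis left out; green is a positive and brown a negative interaction. Calls fell to between 3 and 75 without one of 9 libraries and rose to 548, 570 and 2094 without Combo replicate 3, NaAsO2 replicate 1 or NaAsO2 replicate 3.

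Most called genes responded less to both agents together than the sum of their single responses. Of the 170 positive calls, 90 were lower than Ctrl with each agent alone, 47 were lower with NaAsO2 and not called with RK-33, and 30 were called with neither agent. Of the 136 negative calls, 72 were higher with each agent alone and 62 higher with NaAsO2 and not called with RK-33. The mean level in Combo lay between those of the other 3 groups for 83 of the positive and 126 of the negative calls. It lay above all 3 for 64 of the positive calls and for 4 of the negative ones. Against Ctrl, Combo was higher for 44 of the positive calls and lower for 82, where 7.72% of all genes were higher and 7.09% lower, and it was higher for 91 of the negative calls and lower for 1. The median over the positive calls was -0.94 for NaAsO2 minus Ctrl, -0.70 for RK-33 minus Ctrl and -0.45 for Combo minus Ctrl. The corresponding medians over the negative calls were 1.07, 0.56 and 0.65. The single effects and the interaction share libraries, so these figures describe the calls and are no separate evidence for them.

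**Figure D2:**
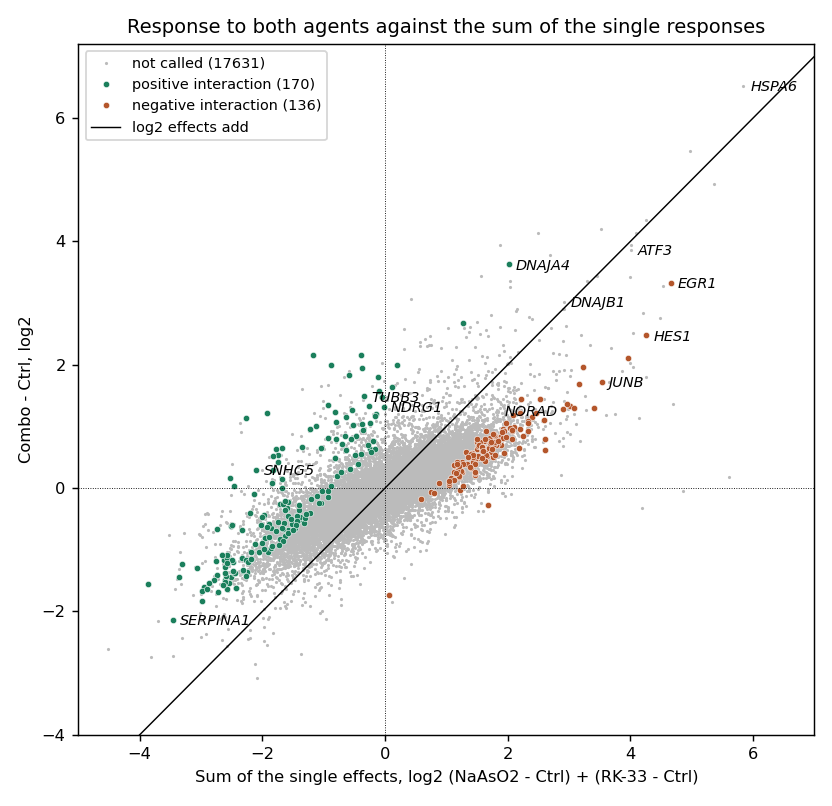
Combo minus Ctrl (y axis, log2) against the sum of both single effects (x axis, log2) for the 17937 genes tested; the line marks effects that add, and both axes use the same Ctrl libraries. The 170 positive calls lie above the line, many at negative sums, and the 136 negative calls lie below it at positive sums, while ATF3, DNAJB1 and HSPA6 lie near the line far to the upper right.

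Sequences are shown first for genes whose roles in stress are discussed below, from promoters of the RefSeq table (build GRCh38.p14, 250 bases before to 50 after the annotated start). Capitals mark the motif, and where a promoter held several matches, which may overlap, one is shown. Both strands were searched except for the pyrimidine run. The heat shock element (HSE), the binding site of HSF1, was searched as GAA, NN, TTC, NN and GAA in a row and was found in 6 of 27 promoters of the heat shock list and in 0.487% of all promoters of the table. The windows are chr9:33025268-33025297 and chr1:161524458-161524487 on the plus strand and chr11:123062170-123062199 on the minus strand, in that order.
DNAJA1: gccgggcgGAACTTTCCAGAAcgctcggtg
HSPA6: cggaaaggTTCGCGAAAGTTCgcggcggcg
HSPA8: cgggccccTTCTGGAAGGTTCtaagatagg

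The serum response element, through which SRF acts on immediate early genes, was matched in 2 of 22 promoters of the immediate early list, EGR1 and SRF, and in 1.29% of all promoters. The metal response element, searched as TGCACNC or TGCGCNC, was in the promoters of all 4 metallothionein list genes found in the table and in 29.3% of all promoters. The windows lie on the plus strand at chr5:138465386-138465415 and chr16:56682406-56682435.
EGR1: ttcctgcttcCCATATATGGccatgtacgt
MT1X: ggcggggcctcTGCGCCCggccctcttccc

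TOP mRNAs, which depend on growth signals for translation, begin with a run of pyrimidines. Here a run of at least 8 pyrimidines anywhere within 15 bases of the annotated start was searched, a looser rule that does not identify TOP mRNAs. Such a run was in 47 of 62 promoters of ribosomal protein genes, 8 of 25 of small nucleolar RNA host genes and 13.4% of all promoters. The windows of RPL21 and SNHG12, at chr13:27251543-27251572 on the plus and chr1:28581859-28581888 on the minus strand, hold 15 bases on each side of the start. A match is a description of these letters only.
RPL21: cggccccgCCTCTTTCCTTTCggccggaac
SNHG12: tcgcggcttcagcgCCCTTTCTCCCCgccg

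Among the positive calls were mRNAs for membrane and secreted proteins, which are translated at the ER. Those described first were lower than Ctrl with NaAsO2, with RK-33 and with both, and the level in Combo lay above the sum of the effects. CLPTM1, a multipass membrane protein of the ER (GRCh38.p13, chr19:44954585-44993341), had 184.6, 159.7 and 163 CPM in the 3 Ctrl libraries, 54.4, 59.9 and 63.2 CPM with NaAsO2, 61.0, 65.6 and 61.9 CPM with RK-33 and 57.5, 53.7 and 55.1 CPM in Combo. No treated library overlapped with Ctrl, and the 3 treated groups lay within 12 CPM of each other. The sum of the log2 effects would have placed Combo at 22.1 CPM, and the geometric mean was 55.6 CPM. The interaction was 1.34 ± 0.17 (SE, n = 3 per group, adjusted p = 0.0103 by edgeR) and 1.37 without both libraries that stood apart.

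CD9, a tetraspanin of the plasma membrane, had 119 to 134.2 CPM in Ctrl, 30.2 to 44.6 with NaAsO2, 44.6 to 57.4 with RK-33 and 47.6 to 54.3 in Combo, with an interaction of 1.76 ± 0.23 (edgeR adjusted p = 0.0103). SLC29A1, a nucleoside transporter, had 140.3 to 152.7 CPM in Ctrl and 49.3 to 63.3 CPM over all 9 treated libraries, with an interaction of 1.33 ± 0.19 (edgeR adjusted p = 0.0127). P4HA1, a collagen prolyl hydroxylase, PIGU, a subunit of the GPI transamidase, and TMEM45A, a membrane protein, followed with 1.33, 1.37 and 1.92. With intron counts added to exon counts, PIGU had 0.42 (adjusted p = 0.332) and TMEM45A 0.95 (adjusted p = 0.109), and both lost their call. SERPINA1, a secreted protease inhibitor, went from 74.6 to 83.7 CPM in Ctrl to 17.4 to 18.9 CPM in Combo, lower than with either agent in every library, yet its sum of effects was 7.32 CPM and its interaction 1.33. The secreted chaperone CLU (1.45) and the metalloprotease inhibitor TIMP1 (1.09) had interactions of the same direction. Leaving out 1 library at a time kept CLPTM1 between 1.27 and 1.41 and CD9 between 1.60 and 1.89, and each stayed called in 9 of the 12 fits.

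Of 20 ER chaperones and genes of the unfolded protein response, 3 were called positive and 0 negative, against 0.948% and 0.758% of all genes. The median interaction was 0.60 against -0.01 over all genes tested. HSP90B1, the HSP90 of the ER lumen, had 574.8 to 664.1 CPM in Ctrl, 155.2 to 241.5 with NaAsO2, 289.7 to 336.4 with RK-33 and 269.1 to 295.2 in Combo. The other calls were the lectin chaperone CANX (1.15) and the disulfide isomerase PDIA3 (1.07). Without both libraries that stood apart, 12 members were positive and 1 negative, against 13.4% and 16.4% of all genes. A further pair of families was chosen after the values were seen, and their counts only describe them. In the machinery for translocation, glycosylation and membrane insertion at the ER, 6 of 37 genes were positive and 0 negative, among them DDOST (1.00), RPN1 (1.13) and STT3B (1.20) of the oligosaccharyltransferase, and the median was 0.71. Without both libraries 27 were positive and 0 negative. Among lysosomal proteins, 10 of 36 were positive and 0 negative, with HEXA (0.88), GLA (1.28) and the sterol carrier NPC2 (1.15), and the median was again 0.71. Without both libraries 26 were positive and 0 negative. Of these lysosomal genes, 28 were lower with NaAsO2 (14.1% of all genes were) and 25 with RK-33 (3.17%).

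Collagens, laminins and integrins, which are also made at the ER, gave no call among 29 genes tested, with a median of 0.24. Without both libraries, 9 were positive and 1 negative, against 13.4% and 16.4% of all genes. Among 19 sterol genes, 2 were positive, against 0.948% of all genes, and the median was 0.39. The 2 were DHCR7 (1.13) and SQLE (0.86), both enzymes of cholesterol synthesis. Without both libraries 9 of the 19 were positive and 1 negative.

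mRNAs of the translation machinery and of housekeeping enzymes had smaller interactions of the same direction. Of 78 cytosolic ribosomal proteins, 2 were called positive, against 0.948% of all genes. They were RPL5 (0.90 ± 0.20, edgeR adjusted p = 0.0432) and RPL7 (1.30 ± 0.30, adjusted p = 0.0472), and 66 of the 78 had a positive value, with a median of 0.47. With intron counts added, both lost their call (0.76, adjusted p = 0.062 for RPL5 and 1.12, adjusted p = 0.0666 for RPL7). RPL5 had 255.2 to 296.7 CPM in Ctrl, 130.8 to 162.4 with NaAsO2, 122.1 to 156.3 with RK-33 and 133.4 to 147.2 in Combo, so the treated groups overlapped and lay below Ctrl. Without both libraries 55 of the 78 were positive and 0 negative, where 13.4% and 16.4% of all genes were. RPL21 and RPL24, whose starts carry long pyrimidine runs, had values of 0.87 (adjusted p = 0.057) and 0.83 (adjusted p = 0.079). Ribosomal protein genes have many processed pseudogenes, which can share fragments with them, so single values are less certain.

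Translation factors (0 of 40 called, median 0.39), respiratory chain subunits (0 of 43, median 0.44) and proteasome subunits (1 of 31, median 0.34) stood on the same side, with 19, 20 and 16 positive and 3, 0 and 1 negative without both libraries, against 13.4% and 16.4% of all genes. The proteasome call was the ATPase subunit PSMC1 (0.90). Of 19 glycolytic enzymes GAPDH was called (1.01), from 721.8 to 871.2 CPM in Ctrl, 406.6 to 506.2 with NaAsO2, 379.5 to 449.9 with RK-33 and 441.3 to 559.8 in Combo. Of 28 mitotic genes CCNB1, cyclin B1, was called (0.92), and of 11 tubulins TUBB3 (1.82), with medians of 0.40 and 0.62. Over all genes 0.948% were called positive, so 1 call says little about a list of this size. Without both libraries, 6 glycolytic, 14 mitotic and 8 tubulin genes were positive and 2, 1 and 0 negative. With 12 libraries, mRNAs of SG proteins (0 of 30 called, median 0.18), of P-body and decay proteins (0 of 33, median -0.08) and of RNA helicases (1 of 39, median 0.03) stood nearer to all genes. Without both libraries, 5, 4 and 5 of them were positive and 5, 13 and 7 negative. The 13 negative P-body and decay genes were 39.4% of their list, against 16.4% of all genes, and the list median was -0.22 in that fit. The helicase called was DDX5 (0.78). DDX3X, which encodes the target of RK-33, had 463.6 to 516.2 CPM in Ctrl, 227.1 to 574.9 with NaAsO2, 369.1 to 407 with RK-33 and 349.6 to 468.5 in Combo, and its interaction of 0.22 had a 95% interval of -0.59 to 1.04. The lowest NaAsO2 value is that of replicate 3, and without it the interaction was -0.11.

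**Figure D3:**
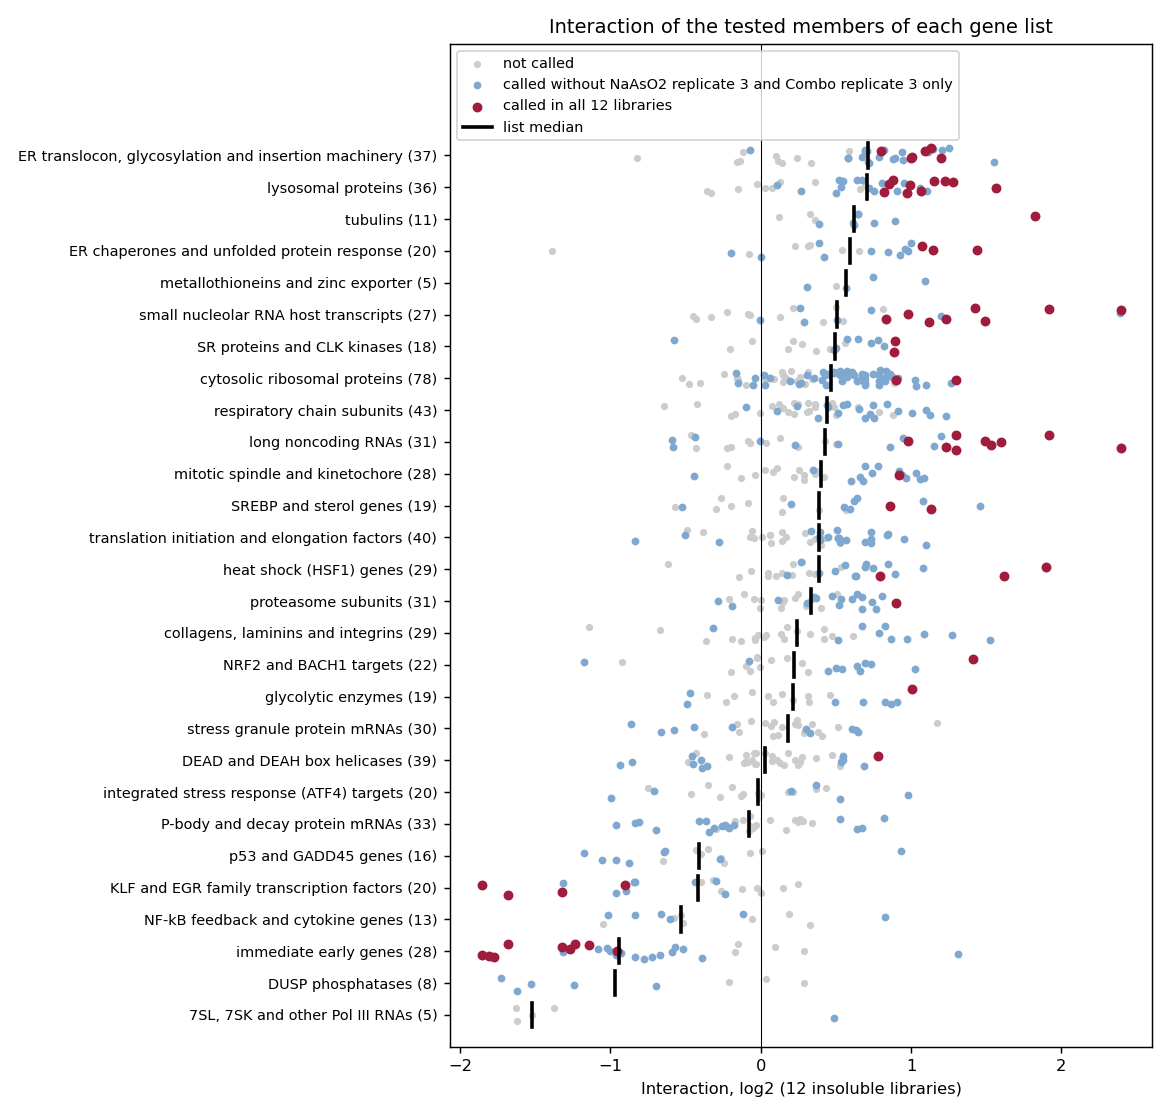
Interaction (x axis, log2) of each tested member of 28 gene lists (y axis, number of tested members in brackets), sorted by the list median (black bar); dark red marks genes called in all 12 libraries and blue those called only without NaAsO2 replicate 3 and Combo replicate 3. Lists of ER, lysosomal, ribosomal and noncoding RNA genes have their calls at positive values, and the immediate early list has its 9 calls at negative values.

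Other positive calls were noncoding RNAs. Most of those named fell with NaAsO2, did not pass the test with RK-33, and in Combo were higher than Ctrl or did not pass the test against it. Of 31 long noncoding RNAs, 9 were positive and 0 negative, with a median of 0.43, against 0.948% positive over all genes. Without both libraries 16 were positive and 3 negative, against 13.4% and 16.4% of all genes. With NaAsO2, 17 of the 31 were lower, as were 14.1% of all genes, and with RK-33 1 was, as were 3.17%. Several host small nucleolar RNAs in their introns. SNHG5 (chr6:85650491-85678932) had 14.9, 15.43 and 10.8 CPM in Ctrl, 4.60, 2.17 and 5.31 with NaAsO2, 11.3, 9.65 and 12.1 with RK-33 and 15.8, 21.3 and 13.3 in Combo. The NaAsO2 libraries lay apart below all others. Its interaction was 2.39 ± 0.41 (edgeR adjusted p = 0.0225), about 5 times the level that the sum of the effects would give, 3.21 CPM against 16.6 CPM.

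ZFAS1 (chr20:49278178-49299600) had 29.5 to 43.3 CPM in Ctrl, 8.45 to 16.9 with NaAsO2, 31.0 to 32.6 with RK-33 and 34.2 to 43.8 in Combo, and an interaction of 1.92 ± 0.32. GAS5, named for its accumulation on growth arrest, had an interaction of 0.98, which was 0.63 and not called with intron counts added (adjusted p = 0.227), and SNHG12 one of 1.49. SNHG3 was lower with each agent (-1.92 and -0.69) and remained lower in Combo (-1.38), with an interaction of 1.23. In the family of small nucleolar RNA host transcripts, chosen after values were seen, 8 of 27 were positive and 0 negative. Of all genes, 0.948% were positive and 0.758% negative. With both libraries left out, 15 of the 27 were positive and 0 negative, against 13.4% and 16.4% of all genes. NOP56, a protein-coding host that makes a core protein of box C/D particles, was in this family (1.12).

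KCNQ1OT1, the nuclear antisense RNA of an imprinted locus (chr11:2608328-2699994), rose above Ctrl in Combo. It had 50.1 to 57.3 CPM in Ctrl, 27.8 to 45.9 with NaAsO2, 59.8 to 67.45 with RK-33 and 112.7 to 149 in Combo, and an interaction of 1.60 ± 0.26 (edgeR adjusted p = 0.0194). LINC02207 (2.18), THUMPD3-AS1 (1.34) and MIR22HG (1.30), the host of miR-22, likewise had their highest values in Combo. MALAT1, the abundant RNA of nuclear speckles, had 5071 to 6866 CPM in Ctrl, 1339 to 2512 with NaAsO2, 3901 to 4636 with RK-33 and 3993 to 4492 in Combo, an interaction of 1.53 ± 0.30. KCNQ1OT1 and MALAT1 mark nuclear RNA, and the share of nuclear RNA in a pellet and its part in these values were not tested. The counting ignored strand, so reads of KCNQ1OT1, THUMPD3-AS1 and ZFAS1 cannot be told from those of genes on the other strand.

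The kinase CLK1 (0.89), which phosphorylates SR splicing factors, and SRSF7 (0.89), an SR protein, were the calls among 18 genes of that group. The group's median was 0.49, and 0.948% of all genes were positive. With both libraries left out, 9 of the 18 were positive and 1 negative, against 13.4% and 16.4% of all genes. CLK1 had 35.0 to 38.6 CPM in Ctrl, 24.1 to 26.7 with NaAsO2, 41.1 to 46.4 with RK-33 and 48.8 to 64.1 in Combo, the pattern of the noncoding RNAs. SLC7A11, the cystine transporter, was the call among 22 targets of NRF2 and BACH1 (1.41, list median 0.22). In the fit without both libraries 10 of the 22 were positive and 1 negative, against the same shares of all genes. SLC7A11 had 232.8 to 271.7 CPM in Ctrl, 87.2 to 166.6 with NaAsO2, 135 to 153.2 with RK-33 and 170.8 to 239.5 in Combo.

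Of the 170 positive genes, 64 had a Combo mean above those of all 3 other groups. Some of them are described here. NDRG1, a stress-induced cytoplasmic protein, had 73.3, 81.4 and 84.2 CPM in Ctrl, 77.8, 74.4 and 81.0 with NaAsO2, 78.6, 81.9 and 80.8 with RK-33 and 195.7, 200.2 and 199.8 in Combo. The other 3 groups overlapped, and no Combo library came within 100 CPM of them. The interaction was 1.34 ± 0.16 (edgeR adjusted p = 0.00705) and stayed called without any 1 of 11 of the 12 libraries. TUBB3, a beta tubulin of neurons, had 7.86 to 18.2 CPM over the 9 other libraries and 35.3 to 38.3 in Combo. SKP1, the adaptor of SCF ubiquitin ligases, had 44.1 to 46.3 CPM in Ctrl, 31.7 to 40.6 with either agent and 64.1 to 75.4 in Combo, and an interaction of 1.26 ± 0.18. PNP, a purine phosphorylase (1.29), the transcription factor TCF7 (1.52) and the regulator IFRD1 (1.51) were named after their values were seen and were among them, with 51.4 to 57.8, 30.3 to 30.9 and 35.1 to 54.3 CPM in Combo against at most 29.4, 12.2 and 22.1 CPM elsewhere.

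DNAJA4, an HSP40 cochaperone, had 17.2 to 20.2 CPM in Ctrl, 14.5 to 23.6 with NaAsO2, 65.0 to 76.8 with RK-33 and 214.6 to 248.2 in Combo, and an interaction of 1.62 ± 0.24 (edgeR adjusted p = 0.0154). WDR61, a subunit of the superkiller complex, had 25.1 to 25.7 CPM in Ctrl, 15.9 to 16.4 with NaAsO2, 26.8 to 30.01 with RK-33 and 49.2 to 56.6 in Combo, with an interaction of 1.55 ± 0.18 (adjusted p = 0.00705). Both genes overlap on opposite strands, DNAJA4 at chr15:78264086-78282196 and WDR61 at chr15:78277835-78299703, and fragments were counted without strand, so their values cannot be told apart fully. DNAJA1, another HSP40, rose in Combo alone, from 131.5 to 161.5 CPM in the 9 other libraries to 227.1 to 246.2 (0.79 ± 0.18, adjusted p = 0.046). The call of DNAJA1 was kept in 3 of the 12 fits without 1 library, and it was lost with intron counts added (0.42, adjusted p = 0.158).

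The heat shock list as a whole had 3 positive calls among 29 genes, DNAJA4 and DNAJA1 included, and 0 negative. Its median was 0.39, and 0.948% of all genes were positive. With both libraries left out, 16 were positive and 0 negative, against 13.4% and 16.4% of all genes. In Combo, 18 of the 29 were higher than with NaAsO2, as 2.31% of all genes were. Several strongly induced members did not depart detectably from the sum of the log2 effects. DNAJB1, an HSP40, had 69.8 to 77.0 CPM in Ctrl, 152.2 to 195.1 with NaAsO2, 218.4 to 257.6 with RK-33 and 529.1 to 738.1 in Combo. Its interaction of 0.10 had a 95% interval of -0.38 to 0.58. HSPA1B, an inducible HSP70 that shares reads with its copy HSPA1A, had 41.2 to 44.1, 72.2 to 152.8, 277 to 309.4 and 520.5 to 866 CPM in Ctrl, NaAsO2, RK-33 and Combo, and an interaction of -0.06 with an interval of -0.88 to 0.75. HSPA6, an HSP70 made almost only under stress, went from 1.08 to 1.78 CPM in Ctrl through 5.09 to 11.4 with NaAsO2 and 17.2 to 21.3 with RK-33 to 98.5 to 190.3 in Combo. Its interaction was 0.69 with an interval of -0.37 to 1.76, and it was called without both libraries (0.85, adjusted p = 0.0285). The constitutive HSP70, HSPA8, was lower with NaAsO2 (-0.73) and at the Ctrl level in Combo, and its interaction of 1.08 missed the threshold (adjusted p = 0.0576).

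ATF3, a transcription factor of the integrated stress response, likewise did not depart detectably from the sum of the log2 effects. It had 15.1 to 15.6 CPM in Ctrl, 55.6 to 65.3 with NaAsO2, 61.7 to 67.2 with RK-33 and 213.9 to 230.7 in Combo, where the sum of the log2 effects gives 246 CPM. The interaction was -0.15, with an interval of -0.51 to 0.21, and with intron counts added it was -0.50 (adjusted p = 0.135). On the CPM scale, where effects are subtracted rather than divided, Combo exceeded the sum of the single increases by 115 CPM for ATF3 and 261 CPM for DNAJB1, so whether these genes respond more than additively depends on the scale. Of 20 ATF4 targets, 0 were called, with a median of -0.02 that changed sign with 5 of the 22 other settings. With both libraries left out, 4 were positive and 2 negative, against 13.4% and 16.4% of all genes. MT1X, a metallothionein, had 6.97 to 11.7 CPM in Ctrl, 63.0 to 94.7 with NaAsO2, 6.18 to 7.60 with RK-33 and 112.4 to 134.3 in Combo. Its interaction of 1.09 missed the threshold (adjusted p = 0.0732), as did that of MT2A (0.75, adjusted p = 0.0851), and both passed it without both libraries. In that fit 4 of the 5 genes of the metallothionein list were positive and 0 negative, against 13.4% and 16.4% of all genes. Metallothioneins are near-identical to each other and can share reads.

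**Figure D4:**
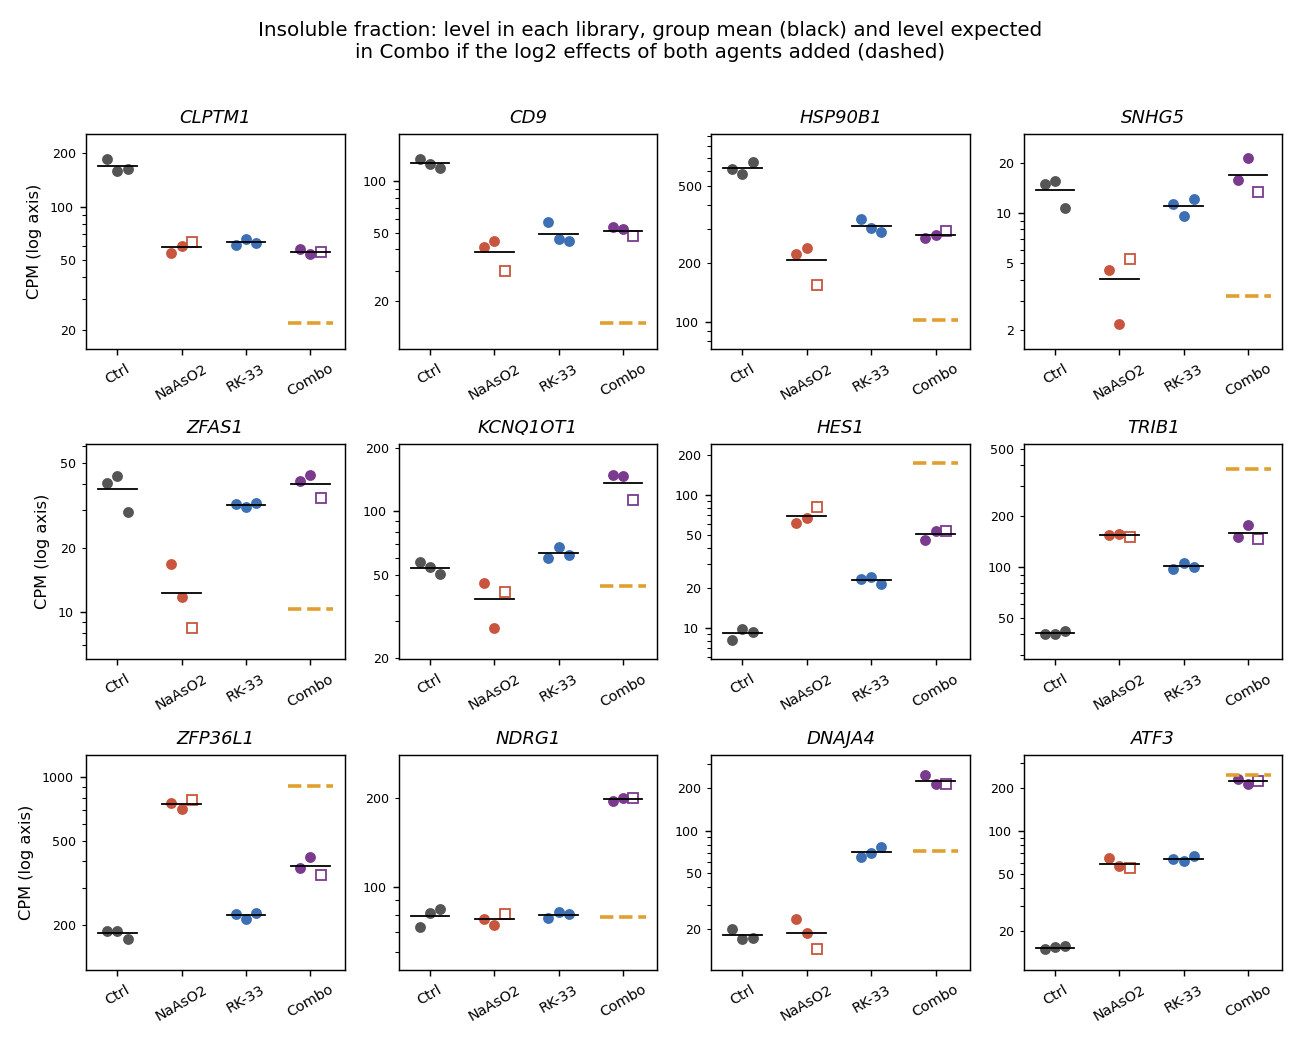
Level of 12 genes in each insoluble library (y axes, TMM-scaled CPM, log axes) by treatment; black bars are group means, open squares NaAsO2 replicate 3 and Combo replicate 3, and dashed bars the Combo level expected if log2 effects added. Combo lies above the dashed bar for CLPTM1, CD9, HSP90B1, SNHG5, ZFAS1, KCNQ1OT1, NDRG1 and DNAJA4, below it for HES1, TRIB1 and ZFP36L1, and beside it for ATF3.

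Among the negative calls were immediate early genes and regulators of transcription and signalling, many of which were higher with NaAsO2 than in Ctrl and lay below the sum of both effects in Combo. HES1, a transcriptional repressor downstream of Notch (chr3:194136148-194138732), had 8.13, 9.86 and 9.37 CPM in Ctrl, 61.4, 67.2 and 80.4 with NaAsO2, 23.4, 23.9 and 21.2 with RK-33 and 45.5, 53.6 and 53.7 in Combo. Every Combo library lay below every NaAsO2 library and above every RK-33 library. The sum of the effects gives 172 CPM against 50.9 CPM measured, and the interaction was -1.77 ± 0.21 (edgeR adjusted p = 0.00705). TRIB1, a pseudokinase that steers protein degradation, had 39.8 to 41.7 CPM in Ctrl, 149.9 to 157.2 with NaAsO2, 96.85 to 104.8 with RK-33 and 146.8 to 177.7 in Combo, and an interaction of -1.27 ± 0.17.

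PARD6B, a cell polarity adaptor (-1.60), SPRY2, an inhibitor of receptor tyrosine kinase signalling (-1.24), SERTAD3, a small transcriptional cofactor (-1.47), and MAP3K9, a kinase upstream of JNK (-1.11), were each higher with NaAsO2 and with RK-33. ZXDA (-1.41) and ZXDB (-1.13), paralogs of near-identical sequence that can share reads, behaved alike. ZFP36L1, which brings AU-rich mRNAs to decay, had 172.1 to 188.1 CPM in Ctrl, 707.3 to 778.5 with NaAsO2, 212.5 to 228.5 with RK-33 and 345.2 to 419.7 in Combo. Here RK-33 alone gave a log2 value of 0.29 that did not pass the test (edgeR adjusted p = 0.211), and Combo was lower than NaAsO2 (-0.98 on the log2 scale), as were 1.1% of all genes. Its relative ZFP36L2 had an interaction of -1.14.

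Of 28 immediate early genes, 9 were negative and 0 positive, against 0.758% and 0.948% of all genes, with a median of -0.94. With NaAsO2 27 of the 28 were higher (17.2% of all genes were) and with RK-33 12 (1.76%). The 9 were JUNB, EGR1, EGR2, IER2, KLF10, NR4A1, NR4A2, ZFP36L1 and ZFP36L2, transcription factors and regulators of mRNA decay. EGR2 had the most negative value (-1.85 ± 0.38), from 3.36 to 5.34 CPM in Ctrl through 15.5 to 28.6 with NaAsO2 and 9.37 to 17.2 with RK-33 to 17.4 to 21.2 in Combo. JUNB had 38.9 to 47.6, 159.4 to 352, 81.8 to 104.7 and 126.2 to 164.2 CPM, in the order Ctrl, NaAsO2, RK-33 and Combo, and an interaction of -1.81 ± 0.37. Its highest NaAsO2 value is that of replicate 3, and without both libraries the interaction was -1.49. EGR1, with the serum response element shown above, had 50.8 to 52.3, 291.9 to 519, 136.6 to 185.8 and 472.3 to 563.5 CPM. Its interaction was -1.32 ± 0.27, although on the CPM scale it departed from additive increases by -9.65 CPM only. HES1 stayed below the sum on the CPM scale too, by 32.5 CPM (-32.5). KLF10 (-1.68), NR4A2 (-1.78), IER2 (-1.24) and NR4A1 (-0.96) completed the group.

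Without both libraries 23 of the 28 immediate early genes were negative, against 16.4% of all genes. FOSB was positive in that fit (1.37, edgeR adjusted p = 4.26e-06) and had 51.9 to 65.6 CPM in Combo against 14.9 to 23.8 with NaAsO2. Of 8 DUSP phosphatases, which dephosphorylate MAP kinases, 0 were called with 12 libraries and 5 were negative without both. DUSP1 (-1.53, adjusted p = 0.06) and DUSP5 (-1.24, adjusted p = 0.0589) missed the threshold with 12 libraries. DUSP1 reached 467 CPM in NaAsO2 replicate 3 against 201.7 and 202.5 CPM in the others. Of 16 p53 and GADD45 genes and 13 NF-kB genes 0 were called, with medians of -0.41 and -0.53. With both libraries left out, 7 and 5 were negative and 1 of each list positive, against 16.4% and 13.4% of all genes. The NF-kB median was -0.04 without NaAsO2 replicate 3 alone. Among 410 zinc finger genes named ZNF and a number, a set chosen after values were seen, 14 were negative (3.41%) and 0 positive. Of all genes, 0.758% were negative and 0.948% positive. ZNF699 was one of the 14 (-1.15 ± 0.19). With both libraries left out, 163 of the 410 were negative and 4 positive, against 16.4% and 13.4% of all genes. Of 20 KLF and EGR family genes, also chosen after values were seen, 4 were negative and 0 positive, with a median of -0.42. In the fit without both libraries 12 were negative and 0 positive.

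NORAD, a long noncoding RNA that binds Pumilio proteins, had 212.6 to 222 CPM in Ctrl, 591.9 to 737.7 with NaAsO2, 243.2 to 268.1 with RK-33 and 458.9 to 547.8 in Combo. Every Combo library lay below every NaAsO2 library, but Combo minus NaAsO2 (-0.34) had an adjusted p of 0.142 by edgeR. The interaction was -0.58 ± 0.18 with an adjusted p of 0.112, and -0.55 with an adjusted p of 0.00156 without both libraries. RN7SL1 had 4237 to 8560 CPM in 10 of the 12 libraries, 13295 in Combo replicate 3 and 72131 in NaAsO2 replicate 3. Its interaction of -1.52 ± 1.05 turned to 0.13 without both. The list of RN7SL1 and other Pol III RNAs gave no call among 5 tested, and its median went from -1.52 to 0.05 in the same way.

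The same contrast in the soluble fraction, from 12 libraries that the comparison above did not use, gave 3123 calls among 17105 genes (18.3%), 1691 positive (9.89%) and 1432 negative (8.37%). This number depends on the fit, and a common fit of all 24 libraries called 365 genes for the soluble libraries and 2030 for the insoluble ones. Of the 170 genes positive in the insoluble fraction, 165 were tested there, and 96 of them were positive too, with a median of 0.50. All 136 negative genes were tested, and 21 were negative there, with a median of -0.07. The difference of the interaction between fractions, in a fit of all 24 libraries, was called for 466 of 17666 genes (2.64%). It was positive for 1.6% and negative for 1.04% of the genes. The calls included 56 of the 168 positive genes tested and 55 of the 136 negative ones, and the choice of members for a large insoluble value tilts such counts. With a term for each lysate, which gave both fractions, 8 genes were called, 5 positive and 3 negative. Of 29 named genes whose difference was called and at least 1 in size, 0 were called with that term, with adjusted p-values of 0.0517 to 0.118, and 29 kept their sign. The differences called below are those of the fit without it.

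Several noncoding RNAs had interactions in the soluble fraction as well, with 2.60 for SNHG5, 1.92 for KCNQ1OT1, 1.68 for SNHG12, 2.37 for LINC02207 and 1.53 for THUMPD3-AS1, and their differences between fractions lay between -0.23 and -0.10 and were not called. ZFAS1 and MALAT1 had 1.00 and 0.84 there. DNAJA4 had 1.62 in each fraction, and TUBB3 had 2.58 in the soluble fraction. Of the ER and membrane mRNAs above, CLPTM1 had 0.23, CD9 0.47 and HSP90B1 0.24 in the soluble fraction. CD9 was called there (edgeR adjusted p = 0.00568), and the differences of 1.19, 1.38 and 1.28 were called (adjusted p = 0.00815, 0.00703 and 0.0114). PIGU (0.58), TMEM45A (0.54) and P4HA1 (0.43) were called in the soluble fraction too (edgeR adjusted p = 0.00429, 0.00767 and 0.0228). Their differences of 0.87, 1.46 and 0.99 were also called. SLC29A1 had 0.32 in the soluble fraction and was not called there (adjusted p = 0.0602). As lists, 15 of 37 genes of the ER machinery and 7 of 20 ER chaperones were positive in the soluble fraction as well. In each list 1 gene was negative there, and of all genes 9.89% were positive and 8.37% negative. A called positive difference was found for 4 of each list, and for 1.6% of all genes. GAPDH (1.01 and -0.39), RPL7 (1.30 and -0.22), RPL5 (0.90 and -0.32) and CCNB1 (0.92 and -0.34) had opposite signs and a called difference.

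Ribosomal protein mRNAs as a list had a median of 0.47 in the insoluble and -0.40 in the soluble fraction. There, 32 of 78 were negative and 0 positive, against 8.37% and 9.89% of all genes. The difference was called for 24 of the 78, all of them positive, against 1.6% of all genes. These counts are from the fit without a lysate term. With that term, 5 genes in all had a called positive difference. Among the 28 immediate early genes, 8 were negative in the soluble fraction and 6 positive, against 8.37% and 9.89% of all genes. KLF10 (-1.23) and JUNB (-0.76) were among the negative ones. EGR1 (0.36 in the soluble fraction), ZFP36L2 (0.45) and TRIB1 (-0.10) differed between fractions, by -1.59, -1.51 and -1.08. NORAD had -0.58 in the insoluble fraction (edgeR adjusted p = 0.112) and 0.57 in the soluble fraction (adjusted p = 0.0039), a difference of -1.06 (adjusted p = 0.0114).

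**Figure D5:**
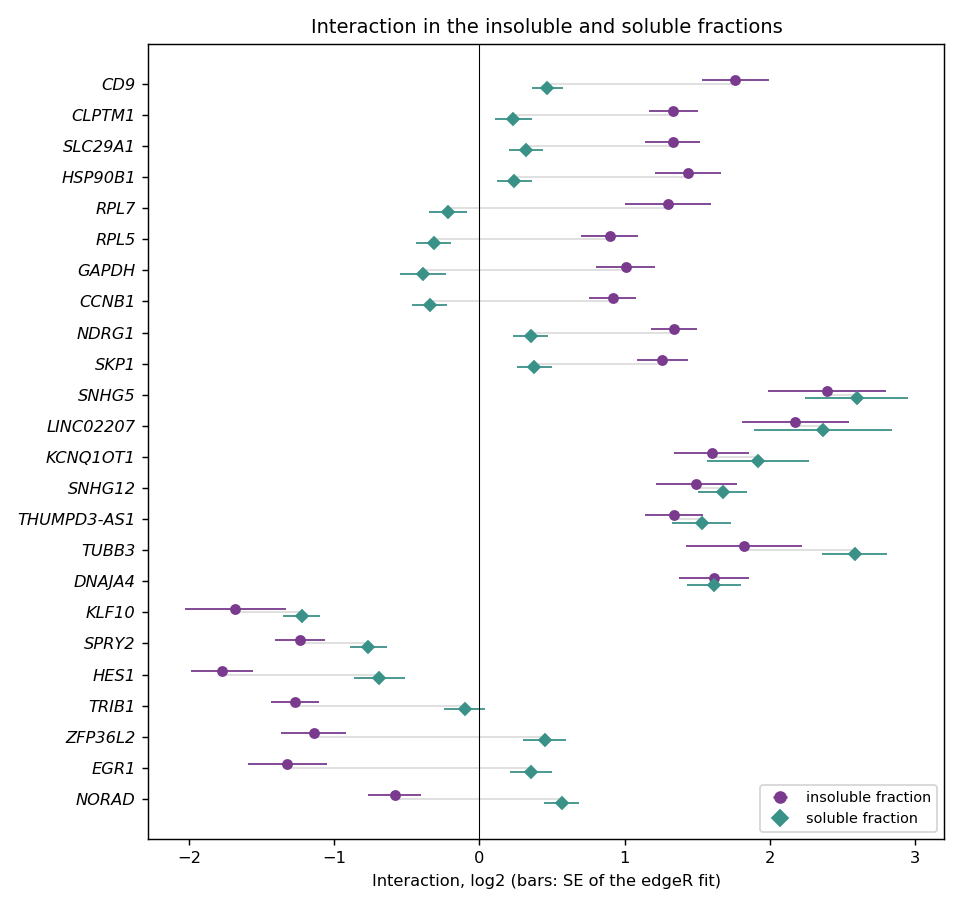
Interaction (x axis, log2) of 24 genes (y axis) in the insoluble fraction (purple circles) and the soluble fraction (green diamonds); bars are the SE of each edgeR fit of 12 libraries. The SE bars of both fractions overlap for the 5 noncoding RNAs and DNAJA4, whereas RPL7, RPL5, GAPDH and CCNB1 lie on opposite sides of 0, and so do EGR1, ZFP36L2 and NORAD.

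Introns of the same insoluble libraries were counted separately (a fragment over a boundary could enter both counts). Their interaction was called in 909 of 16720 genes (5.44%), 614 positive (3.67%) and 295 negative (1.76%). Scaled with the exon counts instead, 417 were called, 411 positive and 6 negative, so the negative calls depend on the scaling. The intron values that follow are from introns scaled by themselves. Of the genes positive in exons, 134 were tested in introns and 40 of them were positive, and of the negative ones 107 were tested and 7 were negative. NDRG1 (1.79, edgeR adjusted p = 0.000618), ZFAS1 (1.89, adjusted p = 0.000405), SRSF7 (2.01, adjusted p = 9.9e-05) and NOP56 (1.88, adjusted p = 0.0128) were positive in introns as in exons. Introns of CLPTM1 (-1.01, adjusted p = 0.0823), HES1 (-0.07, adjusted p = 0.953) and TRIB1 (-0.07, adjusted p = 0.913) did not pass the test. By exonic length, the median interaction was 0.10 in the shortest of 5 equal bins of genes and -0.01 in the longest. These medians were 0.21 and -0.06 without both libraries that stood apart. From the shortest bin to the longest there were 5, 16, 32, 52 and 31 negative calls and 22, 33, 40, 36 and 39 positive calls. Neither count rose steadily with length.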

How the data were processed

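Per the labels and the study's methods, RNA of the insoluble cytoplasmic fraction was sequenced as rRNA-depleted, paired-end libraries with 3 replicates in each of 4 groups. The authors aligned reads with STAR 2.7.2b to GRCh38.p13 (SAMtools 1.2, from the submitters' processing notes) and deposited raw counts of fragments on the exons and introns of GENCODE release 40 genes, made with featureCounts 1.5.3 without strand, with a minimum overlap of 25 bases for introns. The exon table held 60308 genes and 0 counts on 37 mitochondrial genes. Genes that averaged 1 CPM or more over the libraries of a fit were tested with edgeR 4.0.16 (R 4.3.3) in a model of 4 groups, with glmQLFTest, TMM scaling and Benjamini-Hochberg adjustment. Levels are TMM-scaled CPM of exon counts, not divided by length, except the medians of the cell type markers, which are CPM without TMM factors. The same model was fitted to soluble and to intron counts, and the difference between fractions to all 24 libraries in 8 groups.

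The quasi-likelihood test was used for counts, and the likelihood ratio test named in the study was an alternative, as was DESeq2 1.42.0. Named genes were the 10 with the smallest adjusted p and the 5 with the largest value in each direction, with an absolute log2 value of at least 1 and a mean of at least 10 CPM, the 3 with the smallest p in each of 24 gene lists, genes the study names, RN7SL1 and DDX3X. Further genes, and 5 of the lists, were chosen after their values were seen. The comparison, members and lists were chosen with earlier results of these data known. The script was tested on simulated counts. CircRNA tables were not used here. Some genes that met the rule are not reported here.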

Additional observations from a re-analysis of the deposited data

Results flagged for a closer look

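The interaction differed between the insoluble and the soluble fraction for 466 genes, in edgeR's test of the difference itself over 24 libraries, and for 2620 genes without the insoluble libraries of NaAsO2 replicate 3 and Combo replicate 3, a fit added after seeing the data. With a term for each lysate, 8 genes were called, and of the 29 genes listed here 0 were, with adjusted p-values of 0.0517 to 0.118 and the same sign for 29. Among the genes named, differences of at least 1 on the log2 scale were as follows, each as the insoluble minus the soluble interaction. Genes for ER, membrane, secreted and lysosomal proteins differed by 1.38 (CD9), 1.19 (CLPTM1), 1.28 (HSP90B1), 1.18 (RPN1), 1.09 (SLC29A1), 1.23 (CLU), 1.03 (SERPINA1), 1.04 (PDIA3), 1.46 (TMEM45A), 1.01 (NPC2) and 1.13 (GLA). Genes of the ribosome, the proteasome and housekeeping functions differed by 1.30 (RPL5), 1.61 (RPL7), 1.20 (RPL21), 1.23 (RPL24), 1.23 (PSMC1), 1.48 (GAPDH), 1.35 (CCNB1) and 1.35 (NOP56). The chaperone HSPA8 differed by 1.46, WDR61 by 1.33 and NDRG1 by 1.07. Negative differences were -1.51 for ZFP36L2, -1.08 for TRIB1, -1.06 for NORAD, -1.59 for EGR1, -1.13 for PARD6B, -1.02 for MAP3K9 and -1.03 for ZNF699. The cause of these differences was not tested.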

How the results depend on the processing

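The 306 calls of the interaction in the insoluble fraction became 865 with glmLRT, 1240 with DESeq2, 747 without a filter on low counts, 635 with a mean of at least 10 CPM, 2030 in a fit of all 24 libraries, 523 with exon plus intron counts, 5334 without NaAsO2 replicate 3 and Combo replicate 3, 195 with an absolute log2 value of at least 1 and 4 at an adjusted p under 0.01. Leaving out 1 library at a time gave 3 to 2094. RLE factors (297), library size alone (386), TMM without 7SL genes (306) and removal of the length trend (340) stayed within 1.5 times, but library size alone made 181 calls positive and 205 negative. Replicate numbers were not taken as pairs in the main fit, since 7 of 18 correlations of deviations between same-numbered libraries passed 0.1 (-0.346 to 0.823). The replicate block gave 326 calls, with 140 of the 170 positive and 114 of the 136 negative ones. All 3 pairs of NaAsO2 and Combo lay at 0.672 to 0.823. Not every sample correlated best with its own number. With the block DDX5, DNAJA1, MIR22HG, PSMC1 and TUBB3 lost their call (adjusted p = 0.0513 to 0.0552) and DUSP1 gained one (0.0457). Soluble calls were 365 in all 24 libraries and 2730 with the replicate block. Differences between fractions were 8 with a replicate block of lysates and 2620 without the libraries that stood apart. Intron calls were 417 when scaled with the exon counts (411 positive and 6 negative), 1400 with the replicate block and 4458 without the libraries that stood apart.

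Of 1803 values of 82 named genes under 22 settings, 1227 kept their direction and side of the threshold, 511 lost it, 56 gained it and 9 changed sign, none of them a called gene. HSPA1B was 0.025 with library size alone and 0.12 without both libraries that stood apart, and ranged from -0.31 to 0.37 as single libraries were left out. RN7SL1 was 0.13 without both and ranged from -2.03 to 0.61. DDX3X ranged from -0.11 to 0.43 and DNAJB1 from -0.075 to 0.19. List medians changed sign for ATF4 targets, SG, P-body and helicase genes and Pol III RNAs. The causes were not tested.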
